A study of Danio rerio with 8 samples.

Results

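Smooth muscle contractile genes and elastin genes of the zebrafish heart were followed through cardiomyocyte loss and repair and were compared with larval hearts. They were taken by symbol: acta2, tagln, cnn1a, cnn1b, myh11a, myl9a, myl9b, mylka, elna and elnb. These 10 symbols matched 11 of the 31953 Ensembl genes in the count table, because mylka is carried by 2 gene identifiers, ENSDARG00000034801 and ENSDARG00000090738. The list of symbols was drawn up with earlier results of these data known. Genes were matched to it by symbol alone, and all 11 passed the filter on low counts, cnn1a through the larval libraries alone. RefSeq's GRCz12tu annotation lists mylka as a single gene, and the sources used here do not say whether the 2 identifiers were pieces of 1 gene in the annotation used for counting.

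Smooth muscle contracts when calcium and calmodulin activate myosin light chain kinase, which phosphorylates the regulatory light chain of smooth muscle myosin. Calponin and transgelin are actin-binding proteins of the contractile state, and smooth muscle alpha actin is also made by myofibroblasts and by immature or stressed cardiomyocytes. In teleost hearts most smooth muscle lies in the bulbus arteriosus, the elastic chamber of the outflow tract, whose wall is rich in elastin. Zebrafish carry paired copies of several of these genes, and elnb is known as the elastin copy linked to bulbus development.

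The data are bulk RNA sequencing of 8 libraries in 4 groups of 2. Control adult hearts are labelled 0 days, not injured, with 0.1% dimethyl sulfoxide (DMSO) as vehicle. Injured adult hearts were taken 3 and 7 days post injury (dpi) after metronidazole (MTZ) at 5 mM with 0.1% DMSO for 48 hours, which kills ventricular cardiomyocytes that express the bacterial nitroreductase NfsB, fused to mCherry, from the vmhc promoter (vmhc:mCherry-NTR). Young hearts came from untreated larvae 3 days old. Adults were about 6 months old in the extraction protocol and 5 to 12 months old in the treatment protocol. An adult library is a pool of 4 to 6 hearts, a young library one of about 500. The growth protocol also lists AB wild-type fish and the hsWnt8:GFP and hsDKK1:GFP lines. The labels do not state which of these the control or young fish were, and no group received MTZ without ablation, so drug and ablation cannot be told apart. Nor do they say that the pools of a group came from separate experiments, so p-values measure the spread between these pools.

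Total counts ran from 10868019 to 26628897 per library. The 7 dpi libraries stood apart: they were the deepest, yet detected 17785 and 18744 genes against 20660 to 23312 in the others, and mitochondrially encoded transcripts took 24.7% and 28.2% of their counts against 7.14% to 15.3%. Levels below are CPM, counts over an effective library size set by TMM (trimmed mean of M values), unless called RPM, which divides by the library total alone. Using totals instead of TMM moved the median log2 fold change of all genes by 0.44 at 3 dpi against control, by -1.24 at 7 dpi against control, by -1.68 at 7 dpi against 3 dpi and by 0.60 in young against control. Changes are given relative to the TMM scaling, and the value under library totals is printed where it alters a call. Column names give control and 3 dpi 1 common run prefix and the 7 dpi and young libraries another each, so in comparisons with 7 dpi or young the run and the group cannot be told apart, although the protocol says that the libraries were sequenced together.

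Heart markers were present in every group, at very different levels. A list of 16 measured cardiomyocyte genes summed to 69180 and 75350 CPM in the control libraries, 22680 and 42600 CPM in the 3 dpi libraries, 176400 and 133400 CPM in the 7 dpi libraries, and 5359 and 5261 CPM in the young ones. Most of the 7 dpi sums came from cmlc1, at 61140 and 38420 CPM, vmhcl, at 32890 and 21360 CPM, and myl7, at 25790 and 32780 CPM. Of the list, 5 genes were higher and 5 lower at 7 dpi than in control. In bulk tissue, fewer cells of a type and less RNA per cell cannot be told apart, and this applies to every level below. Genes of other organs were also measured in the young libraries: foxf1, a forkhead factor of gut and lung mesenchyme, read 46.0 and 46.6 CPM there against 0 to 0.410 CPM in adult libraries. foxf1 reached the filter through the young libraries alone, so only its levels are given.

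**Figure D1:**
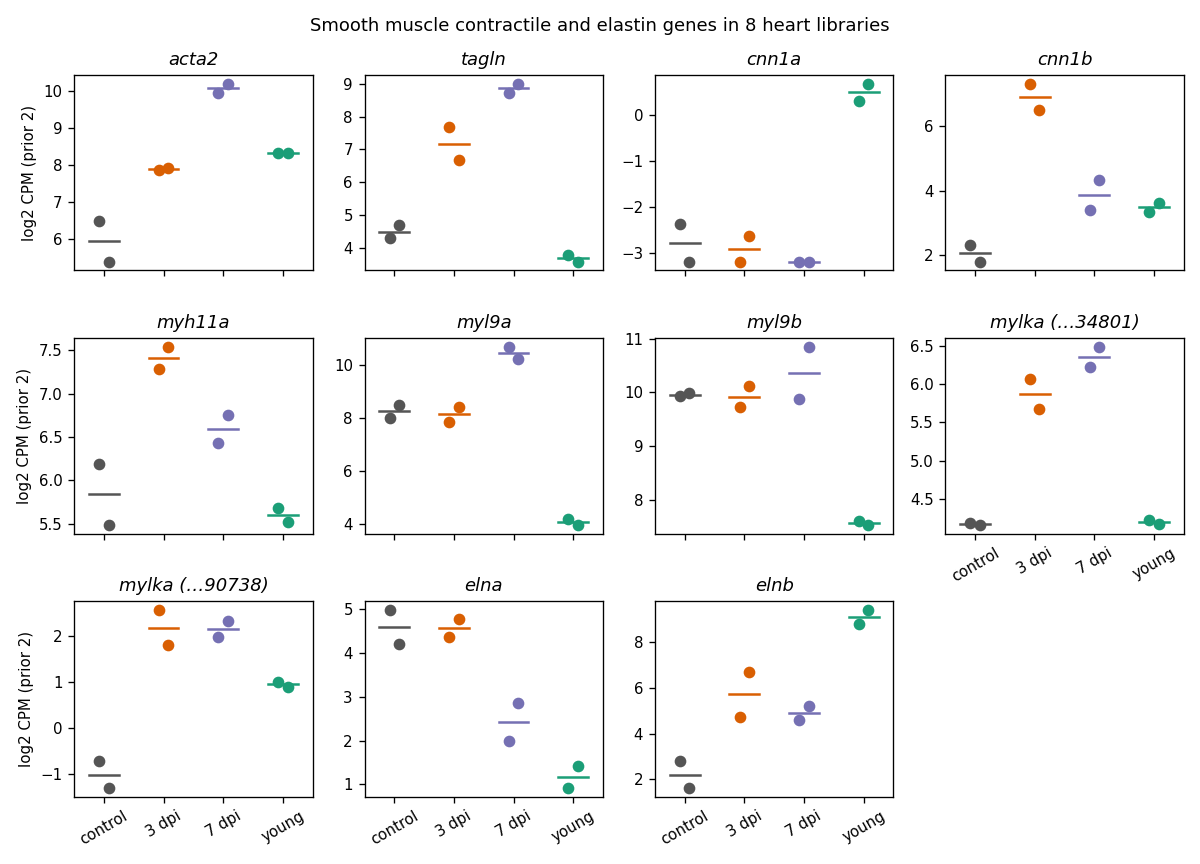
Level of each of the 11 genes in the 8 libraries, as log2 CPM with a prior count of 2, each panel with its own axis; points are libraries, lines are means of the 2 libraries of a group. The 7 dpi libraries are highest for acta2, tagln and myl9a, the 3 dpi libraries for cnn1b and myh11a, and the young libraries for elnb and cnn1a.

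At 3 dpi most contractile genes and elnb were higher than in control hearts, while both regulatory light chain genes and elna were not shown to differ. In the edgeR quasi-likelihood fit over 19330 genes, 7 members rose and 0 fell (also 7 and 0 at an unadjusted p under 0.05, and 7 and 0 with DESeq2), against a background of 15.6% of all genes called, 9.05% higher and 6.55% lower. The members that rose were acta2, tagln, cnn1b, myh11a, both mylka identifiers and elnb. Over the 10 members other than cnn1a the median log2 fold change was 1.79, beside 0.0029 over all genes. Leaving out any 1 library of the comparison kept the count of higher members between 6 and 7; the call lost was elnb without control replicate 2 (3.26, adjusted p = 0.0540).

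At 7 dpi 8 members were higher than in control and 1, elna, was lower, where 38.7% of all genes were called, 18.7% higher and 20.0% lower. The median over the 10 members was 2.20, beside -0.13 over all genes. Under library totals the same comparison called 5 members higher and 1 lower, with a median of 0.95: acta2, tagln, myl9a and both mylka identifiers still passed, and cnn1b, myh11a and elnb did not. This comparison and the one at 3 dpi share the control libraries.

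In the direct comparison of 7 with 3 dpi, acta2, tagln and myl9a rose and cnn1b, myh11a and elna fell. These 3 and 3 of 10 members are close to the background of 50.9% of all genes called, 22.8% higher and 28.1% lower, so the counts alone say nothing particular to the members. Library totals gave 1 higher, myl9a, and 7 lower, so that the falls of cnn1b, myh11a and elna were called under both scalings, the rise of myl9a likewise, and those of acta2 and tagln under TMM alone. The 4 further calls under totals were falls of myl9b (-1.16, edgeR adjusted p = 0.0103), both mylka identifiers (-1.22, adjusted p = 0.00133, and -1.77, adjusted p = 0.00855) and elnb (-2.75, adjusted p = 0.00284). For elnb the TMM value was -1.10 (SE 0.55, edgeR adjusted p = 0.117), and it was called lower without 3 dpi replicate 1 (-1.78, adjusted p = 0.00648) and came to 0.16 without 3 dpi replicate 2.

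Of the same 10 members, 4 were higher in young hearts than in control (acta2, cnn1b, the mylka gene ENSDARG00000090738 and elnb) and 4 lower (tagln, myl9a, myl9b and elna), with a background of 60.2% called, 32.6% higher and 27.6% lower. The count in each direction is not far from that background. The median over the 10 was -0.12, beside 0.14 over all genes, with single values from -4.20 for myl9a to 6.86 for elnb. Without control replicate 2 only 2 members were called higher, acta2 and elnb.

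**Figure D2:**
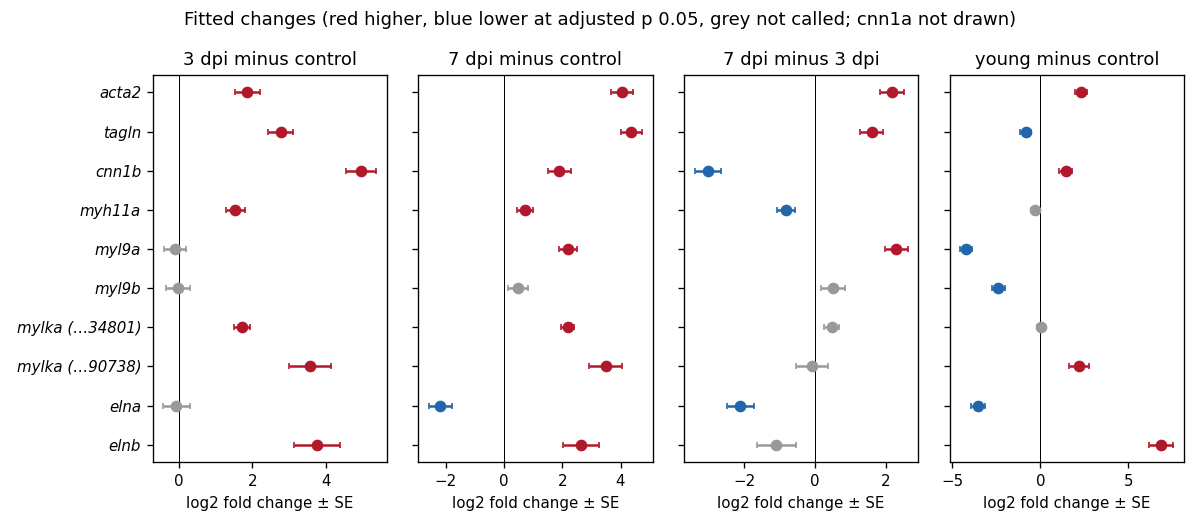
Fitted log2 fold change of 10 members in the 4 comparisons, with standard error bars; red and blue points passed an adjusted p of 0.05 as higher and lower, grey points did not, and cnn1a is not drawn. The light chain genes and elna lie near 0 at 3 dpi, and elnb reaches 6.86 in young against control.

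Among genes of the thin filament, acta2 (ENSDARG00000045180), which encodes smooth muscle alpha actin, was lowest in control hearts. The control pair read 89.8 and 42.0 CPM, the 3 dpi pair 234 and 245 CPM, the 7 dpi pair 989 and 1180.5 CPM, and the young pair 320 and 324 CPM. In CPM the groups did not overlap, and their order from the top was 7 dpi, young, 3 dpi and control. In RPM the young libraries, at 498 and 517, lay between the 7 dpi ones, at 413 and 534. The log2 fold change against control was 1.86 at 3 dpi (SE 0.34, n = 2 libraries per group, edgeR adjusted p = 0.00569), 4.04 at 7 dpi (SE 0.37, adjusted p = 0.000172) and 2.29 in young hearts (SE 0.34, adjusted p = 0.000231). Scaled by library totals, acta2 measured 340 and 332 RPM at 3 dpi against 413 and 534 RPM at 7 dpi, a log2 difference of 0.49 that did not pass (edgeR adjusted p = 0.243). Under TMM the same difference was 2.18 (SE 0.34, edgeR adjusted p = 0.000469).

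Actins are nearly alike in sequence, and the sources used here do not say how reads shared between them were counted. Other actin genes, picked with their values known, moved as well. acta1a, a skeletal alpha actin gene, read 23.8 and 75.9 CPM in the control libraries, where the second was the higher one, unlike for acta2, and 399 and 585 CPM in the 3 dpi libraries. actc1a, the cardiac alpha actin gene, went from 969 and 1282 CPM in the controls to 15020 and 11760 CPM at 7 dpi, a rise of 3.57 (SE 0.39). The part of such sharing in the acta2 values was not tested.

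Transgelin, encoded by tagln (ENSDARG00000045408), binds actin in contractile smooth muscle. Its libraries held 19.4 and 25.7 CPM as controls, 206 and 102 CPM at 3 dpi, 420 and 513 CPM at 7 dpi, and 13.6 and 11.9 CPM when young. Here too the groups did not overlap, but young hearts were at the low end, unlike for acta2. Against control the log2 fold change was 2.77 at 3 dpi (SE 0.34, edgeR adjusted p = 0.000902) and 4.37 at 7 dpi (SE 0.36, edgeR adjusted p = 0.000147). The fall in young hearts, by 0.82 on the log2 scale (SE 0.33, edgeR adjusted p = 0.0481), is near the threshold and was lost under library totals (-0.21, edgeR adjusted p = 0.615). It was also lost with DESeq2 (-0.74, adjusted p = 0.0548), with the replicate number as a block (-0.84, edgeR adjusted p = 0.0556), and without control replicate 2 (-0.61, adjusted p = 0.228) or either young library (-0.93, adjusted p = 0.102, and -0.72, adjusted p = 0.207). In RPM, tagln was 300 and 138 at 3 dpi and 176 and 232 at 7 dpi, so those groups overlapped, whereas the TMM comparison gave a rise of 1.60 (SE 0.32, edgeR adjusted p = 0.00211).

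Calponin 1 restrains the myosin ATPase on actin and marks late smooth muscle differentiation. Its gene cnn1b (ENSDARG00000102398) had the largest fold change at 3 dpi of the members tested, with 4.83 and 3.36 CPM in the control libraries and 161 and 90.3 CPM in the 3 dpi ones. It was down to 10.5 and 19.9 CPM at 7 dpi, which overlapped with the 10.1 and 12.1 CPM of young hearts. The change against control was 4.95 at 3 dpi (SE 0.41, edgeR adjusted p = 0.000110) and 1.91 at 7 dpi (SE 0.38, edgeR adjusted p = 0.00356). Under library totals the latter was 0.66 and did not pass (edgeR adjusted p = 0.219), on 115 and 240 counts at 7 dpi against 59 and 57 in control. The fall from 3 to 7 dpi, by 3.04 on the log2 scale (SE 0.37, edgeR adjusted p = 0.000120), was -4.73 under totals. In young hearts cnn1b was higher than in control by 1.45 (SE 0.38, edgeR adjusted p = 0.00697), a call lost without control replicate 2 (1.2, adjusted p = 0.0720). acta2 and cnn1b, both contractile genes, had their highest levels in different groups.

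Its paralog cnn1a (ENSDARG00000017193) was mainly seen in the larval libraries. It had 30 and 46 counts in young hearts, 1 count over both control libraries, 1 over both 3 dpi libraries and 0 over both 7 dpi libraries. The ratio of young to control was 38.2, with a 95% interval of 6.65 to 1530 that covers counting error only, and against 7 dpi the level was at least 10-fold higher, taking a floor of 3 counts over the group. Since it entered the fit through the young libraries alone, no test is given for it and it is left out of the counts of members.

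Thick filament genes did not move as 1 unit. For myh11a (ENSDARG00000009782), the smooth muscle myosin heavy chain, the control pair was 72.9 and 44.8 CPM, the 3 dpi pair 156 and 186 CPM, the 7 dpi pair 86.4 and 108 CPM, and the young pair 51.2 and 45.7 CPM. The 3 dpi libraries were above all others, and young hearts overlapped with control. The rise at 3 dpi was 1.54 (SE 0.26, edgeR adjusted p = 0.00449). At 7 dpi it was 0.72 (SE 0.26, edgeR adjusted p = 0.0486), a value that turned to -0.55 under library totals (edgeR adjusted p = 0.134) and missed the threshold without control replicate 2 (0.40, edgeR adjusted p = 0.256) or without either 7 dpi library (0.86, adjusted p = 0.0704, and 0.52, adjusted p = 0.246). With the replicate number as a block it was 0.73 (edgeR adjusted p = 0.0642). The fall from 3 to 7 dpi (by 0.82 on the log2 scale, SE 0.26, edgeR adjusted p = 0.0223) was -2.50 under totals, and missed the threshold when 3 dpi replicate 2 was left out (-0.69, adjusted p = 0.0900) and when 7 dpi replicate 1 was (-0.67, adjusted p = 0.136).

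The regulatory light chain, which the kinase phosphorylates, is encoded by myl9a and myl9b. Levels of myl9a (ENSDARG00000038123) were 257 and 364 CPM for the controls, 233 and 348 CPM for 3 dpi, 1673 and 1204 CPM for 7 dpi, and 18.2 and 15.6 CPM for young hearts. Control and 3 dpi overlapped, 7 dpi was far above and young far below. It rose by 2.21 at 7 dpi against control (SE 0.31, edgeR adjusted p = 0.000700), and by 0.96 under library totals (edgeR adjusted p = 0.00751). In young hearts it fell by 4.20 on the log2 scale (SE 0.34, edgeR adjusted p = 4.89e-06).

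The other light chain gene, myl9b (ENSDARG00000008030), gave 975 and 1011 CPM for the controls, 842 and 1115 CPM for 3 dpi, 936 and 1844 CPM for 7 dpi, and 195 and 186 CPM for young hearts. Its 3 adult groups overlapped, and the 7 dpi libraries differed 1.97-fold from each other. The change at 7 dpi was 0.49 (SE 0.33, edgeR adjusted p = 0.270), or -0.75 under totals (edgeR adjusted p = 0.0728). Young hearts were lower by 2.38 on the log2 scale (-2.38, SE 0.35, edgeR adjusted p = 0.000206), a value of -1.78 under totals. A missed threshold in adults does not show that myl9b was unchanged.

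Myosin light chain kinase rose after ablation under both of its identifiers. The first, ENSDARG00000034801, read 18.0 and 17.8 CPM in the control libraries, 67.0 and 51.0 CPM in the 3 dpi libraries, 74.4 and 89.4 CPM in the 7 dpi libraries, and 18.6 and 18.0 CPM in the young ones. Both times after ablation were above control, which overlapped with young. The rise was 1.72 at 3 dpi (SE 0.22, edgeR adjusted p = 0.00102) and 2.19 at 7 dpi (SE 0.22, edgeR adjusted p = 0.000214). Under library totals the 7 dpi rise was 0.94 (edgeR adjusted p = 0.00825). From 3 to 7 dpi the TMM value was 0.47 (SE 0.21, edgeR adjusted p = 0.0819), with the opposite sign under totals as given above. In young hearts the TMM value was 0.029 (SE 0.21, edgeR adjusted p = 0.915), whereas under totals it was 0.63 and passed (edgeR adjusted p = 0.0449).

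The identifier ENSDARG00000090738, also mylka, rested on few counts, 6 and 5 in control. Its control pair was 0.492 and 0.295 CPM, the 3 dpi pair 5.85 and 3.38 CPM, the 7 dpi pair 3.84 and 4.90 CPM, and the young pair 1.90 and 1.74 CPM. It rose by 3.56 at 3 dpi (SE 0.56, edgeR adjusted p = 0.00300) and by 3.49 at 7 dpi (SE 0.56, edgeR adjusted p = 0.00123). In young hearts it was higher than in control by 2.22 (SE 0.56, edgeR adjusted p = 0.00588), a call lost without control replicate 2 (1.87, adjusted p = 0.0521). Its share of the counts of both identifiers was 2.66% and 1.63% in control and 9.24% and 8.84% in young hearts. The injured hearts were also above control in this share, with 8.02% and 6.21% at 3 dpi and 4.91% and 5.19% at 7 dpi. The 95% binomial intervals (exact Clopper-Pearson) were 0.980% to 5.69% and 0.531% to 3.76% in control and 6.96% to 12.0% and 6.71% to 11.4% in young hearts; these and all intervals below cover counting error only.

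Of the members tested in young against control, elnb had the largest fold change. Elastin monomers are crosslinked by lysyl oxidases into fibres that let an arterial wall recoil. For elnb (ENSDARG00000069017) the control libraries held 6.80 and 3.01 CPM, those of 3 dpi 26.9 and 103 CPM, those of 7 dpi 23.9 and 36.6 CPM, and the young ones 440 and 684 CPM. Young hearts were above every adult library, and both groups after ablation were above control while overlapping with each other. The log2 fold change against control was 6.86 in young hearts (SE 0.70, edgeR adjusted p = 1.90e-05), a 116-fold difference. At 3 dpi it was 3.75 (SE 0.62, edgeR adjusted p = 0.00385) in libraries that differed 3.83-fold from each other. At 7 dpi it was 2.65 (SE 0.61, edgeR adjusted p = 0.00663), or 1.38 under library totals, where it did not pass (edgeR adjusted p = 0.0847), and it was lost without control replicate 2 (2.15, edgeR adjusted p = 0.0581).

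The paralog elna (ENSDARG00000099634) went the other way. Its control libraries read 31.6 and 18.5 CPM, its 3 dpi libraries 20.7 and 27.3 CPM, its 7 dpi libraries 3.84 and 7.14 CPM, and its young libraries 1.78 and 2.55 CPM. Control and 3 dpi overlapped, and 7 dpi and young were each below them. The gene fell by 2.18 on the log2 scale at 7 dpi (SE 0.38, edgeR adjusted p = 0.00183) and by 3.52 in young hearts (SE 0.40, edgeR adjusted p = 3.80e-05), and the 7 dpi value was -3.45 under library totals. In RefSeq's GRCz12tu gene order elna and tagln lie on the same chromosome with 13 annotated genes between them, and at 7 dpi the former fell while the latter rose.

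Because a share within a library needs no scaling between libraries, the paralog pairs were also read as shares of the pair's counts, with no test. No transcript lengths were used, so a share tells how the balance moved, not which copy was more abundant per molecule. elna made up 82.3% and 86.0% of elastin counts in control, with intervals of 78.5% to 85.7% and 82.0% to 89.4%. At 3 dpi it was 43.5% (40.1% to 47.0%) and 21.0% (19.4% to 22.6%). At 7 dpi it was 13.8% (10.1% to 18.2%) and 16.3% (13.3% to 19.8%), and in young hearts 0.403% (0.298% to 0.534%) and 0.371% (0.294% to 0.462%). The 4 groups did not overlap in this share, and both groups after ablation lay between adult control and young hearts.

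The light chain pair shifted too, in a different pattern. myl9a took 20.9% (20.2% to 21.6%) and 26.5% (25.9% to 27.0%) of the pair's counts in control and 21.7% (21.1% to 22.3%) and 23.8% (23.3% to 24.3%) at 3 dpi. The 3 dpi values lie within the range of control. At 7 dpi the share was 64.1% (63.6% to 64.7%) and 39.5% (39.0% to 40.0%), above every other library but far apart from each other. In young hearts it was 8.51% (7.80% to 9.26%) and 7.74% (7.09% to 8.44%). cnn1a, by contrast, held 9.97% (6.83% to 13.9%) and 10.9% (8.09% to 14.3%) of calponin 1 counts in young hearts. In adults it was at most 1.67% (0.0422% to 8.94%), a single read in control replicate 1.

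**Figure D3:**
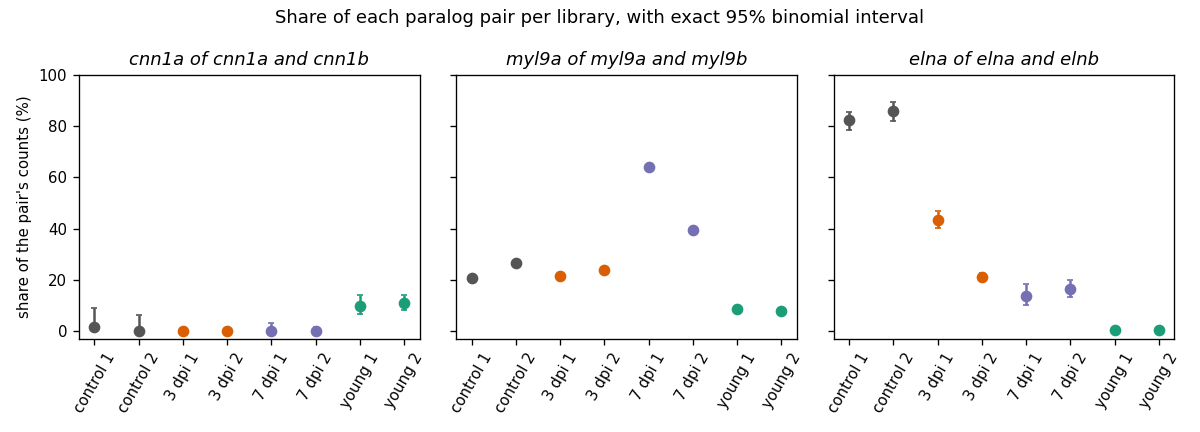
Percent of the counts of a paralog pair that belong to the first-named gene, for each library, with exact 95% binomial intervals for counting error. The elna share falls from above 80% in control to under 1% in young hearts, and the myl9a share is highest in the 7 dpi libraries, at 64.1% and 39.5%.

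Counts of the lists below stand beside the shares of all genes called, which were 15.6% at 3 dpi, 38.7% at 7 dpi, 50.9% for 7 against 3 dpi and 60.2% in young hearts. List counts under library totals and other settings take both directions together. Of all calls under totals, 86.8% were higher at 3 dpi, 6.19% at 7 dpi, 6.20% for 7 against 3 dpi and 71.8% in young hearts. Of 32 tested genes of the smooth muscle cytoskeleton, a list that holds no member, 13 rose and 1 fell at 3 dpi, with a median of 0.67 beside 0.0029 over all genes, and 9 were called without control replicate 2. itga8, an integrin subunit of smooth muscle and other mesenchymal cells, went from 1.89 and 3.13 CPM in the controls to 17.5 and 27.5 CPM at 3 dpi, a change of 3.14 (SE 0.47). actn1, a non-muscle alpha actinin, rose by 1.81 (SE 0.27). At 7 dpi 10 of the 32 rose and 2 fell against control (median 0.25, beside -0.13), among them lmod1a, a leiomodin that nucleates actin filaments, at 3.70 (SE 0.53), and the essential light chain gene myl6, at 2.54 (SE 0.25); under library totals 20 of the list were called there. From 3 to 7 dpi 5 rose and 10 fell, with vclb, a vinculin gene of adhesion sites, at -2.23 (SE 0.28), and 26 were called under library totals. Taken in both directions together, the calls of the list in these comparisons with 7 dpi were near the shares of all genes. Of the 31 that pass the filter on adult libraries alone, 6 were higher and 9 lower in young hearts than in control. These counts are below and close to the shares of all genes (32.6% and 27.6%). The desmin gene desma, which heart muscle also expresses, was at -3.46 (SE 0.30). tpm4a, a tropomyosin that zebrafish heart muscle also uses and the most abundant gene of the list, read 9312 and 12500 CPM in the control libraries and 49270 and 35310 CPM in the 7 dpi libraries, and rose by 1.96 there (SE 0.47).

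Serum response factor, with myocardin and related coactivators, drives many contractile genes of smooth muscle. Of 17 tested genes of these and other linked factors, 1 rose at 3 dpi, under the share of all genes (15.6%): foxc1b, a forkhead factor of mesenchyme, by 1.23 (SE 0.25). The count was 6 without control replicate 1, 3 under library totals, and 0 without control replicate 2 or 3 dpi replicate 1. srfa, which encodes serum response factor, read 4.8 and 2.3 CPM in the control libraries and 9.44 and 11.4 CPM in the 3 dpi ones, a value of 1.56 that did not pass (SE 0.48, edgeR adjusted p = 0.0522). At 7 dpi 2 rose and 6 fell against control, near the share of all genes, with foxc1b at 1.92 (SE 0.25) and tead1b, a TEAD factor, at -2.61 (SE 0.34), and 14 were called under library totals and 5 without control replicate 1. Between 3 and 7 dpi 2 rose and 9 fell, and under library totals all 17 were called. In young hearts 2 were higher and 7 lower, again near the share of all genes (5 called under library totals and 3 without young replicate 2), with mkl1a, a myocardin-related coactivator, at -2.41 (SE 0.47). At 7 dpi and in young hearts the nearness to all genes holds for both directions together. Falls alone were 6 and 7 of 17, beside 20.0% and 27.6% of all genes. Rises were 2 of 17 each time, beside 18.7% and 32.6%. The list medians were 0.30, -0.86, -1.34 and -0.58 in the order 3 dpi, 7 dpi, 7 against 3 dpi and young, beside 0.0029, -0.13, -0.21 and 0.14 over all genes.

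Among 25 tested identifiers of genes that assemble elastic fibres and their matrix, 6 rose and 1 fell at 3 dpi, with a median of 0.47, and 4 were called without control replicate 2, likewise 4 without 3 dpi replicate 1, and 11 with no filter. loxa, a lysyl oxidase that crosslinks elastin, went from 0.574 and 0.944 CPM to 14.6 and 5.76 CPM, a rise of 3.70 (SE 0.54). vcanb, a versican of provisional matrix, went from 10.9 and 8.97 CPM to 96.2 and 97.3 CPM, a rise of 3.29 (SE 0.24). Among the 6 is mfap4, which in zebrafish is used as a macrophage marker and also stands in the macrophage list. At 7 dpi 4 rose and 6 fell, near the shares of all genes in each direction (18.7% and 20.0%). There loxa was still higher, by 2.82 (SE 0.54), whereas vcana was at -4.79 (SE 0.75) and fbn2b, a fibrillin (ENSDARG00000098237), at -4.16 (SE 0.69). Library totals gave 18 calls there, and the TMM count was 4 without control replicate 1 and 6 without 7 dpi replicate 1. Of the 22 identifiers that pass the filter on adult libraries alone, 12 were higher and 5 lower in young hearts. There fbln5, a fibulin needed for elastic fibres and picked with its values known, had 109 and 124 CPM against 9.26 and 14.2 CPM in the controls. emilin3a, of an elastin interface protein family, had 0 counts in every adult library and 193 and 132 CPM in young hearts.

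**Figure D4:**
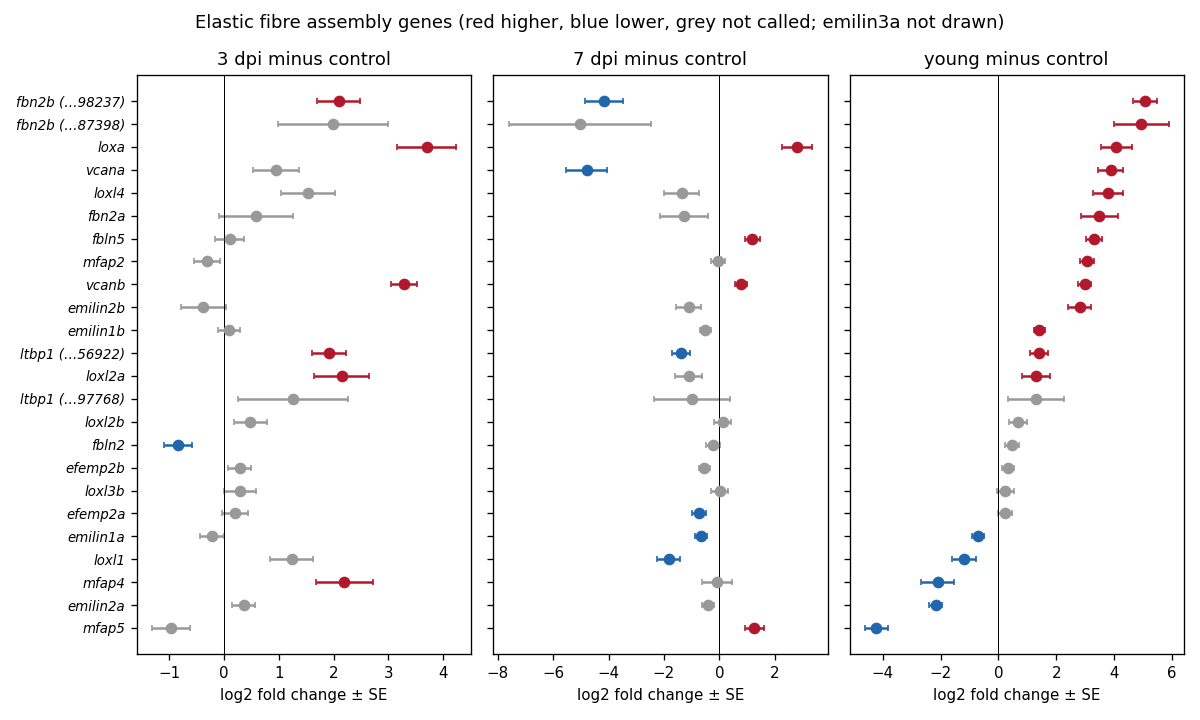
Log2 fold change with standard error of 24 identifiers of elastic fibre and matrix assembly at 3 dpi, at 7 dpi and in young hearts, each against control; red and blue points passed as higher and lower, and emilin3a is not drawn. Of the 25 tested identifiers 22 pass the filter on adult libraries alone. The others entered the fit through the young libraries and are left out of the counts in young hearts. Of them fbn2a and ltbp1 (ENSDARG00000097768) are still drawn, and their points in the young panel are not read as calls. loxa and vcanb are red in all 3 panels, and fbn2b (ENSDARG00000098237) is red at 3 dpi and in young hearts and blue at 7 dpi.

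Markers of cells that can carry these transcripts were read in the same libraries, and their part in the results above was not tested. Of 16 mural cell genes (pericytes and vascular smooth muscle) 3 rose and 1 fell at 3 dpi, with rgs5a and rgs5b, regulators of G protein signalling in pericytes, at 1.79 (SE 0.28) and 2.73 (SE 0.37), and 2 were called without control replicate 2 or 3 dpi replicate 1, 9 without 3 dpi replicate 2, 9 with no filter and 7 with DESeq2. Their summed level was 724 to 882 CPM for control, 755 to 978 CPM for 3 dpi, 596 to 657 CPM for 7 dpi and 489 to 509 CPM for young hearts. The mural list and the fibroblast list below share pdgfra, and tagln2 stands in the cytoskeleton and the fibroblast list. pdgfrb, also listed as a mural gene, was not found by its symbol. The mural gene that fell at 3 dpi was heyl, at -3.57 (SE 0.73), from only 1.39 and 1.36 CPM in control. At 7 dpi 3 mural genes rose and 4 fell, near the shares of all genes, with rgs5a at 1.94 (SE 0.28) and abcc9 at -2.67 (SE 0.42). In young hearts, of the 14 mural genes that pass on adult libraries alone, 5 were higher and 5 lower, not far from the shares of all genes. Fibroblast and epicardial genes, 18 tested, had 5 higher and 0 lower at 3 dpi (10 called under library totals, 2 without control replicate 2 and 3 without 3 dpi replicate 1), where they summed to 7080 and 4645 CPM against 2883 and 3637 CPM for control. fn1a, a fibronectin gene, rose by 2.89 (SE 0.36) and aldh1a2, of retinoic acid synthesis in epicardium, by 1.73 (SE 0.23). At 7 dpi 1 rose and 3 fell (15 called under library totals, 7 with upper-quartile scaling, and 1 or 2 without any 1 library of the comparison), with sums of 3427 and 3514 CPM, and in young hearts 6 were higher and 8 lower, with sums of 6339 and 6716 CPM. The gene of this list that rose at 7 dpi was krt4, a keratin gene, by 1.29 (SE 0.37), and dcn, wt1a and postna fell. Most of the young sums of this list came from col1a1a, at 2081 and 2364 CPM, and krt4, at 1890 and 1747 CPM. The 6 higher genes also held fn1a, and the 8 lower ones held tcf21, wt1b, aldh1a2 and dcn. Of 12 macrophage genes 9 rose at 3 dpi, with sums of 2298 and 1255 CPM against 878 and 1217 CPM for control. At 7 dpi 1 of these rose and 4 fell, with sums of 1047 and 970 CPM, and in young hearts all 12 were lower, with sums of 5.54 and 4.96 CPM. Endothelial and endocardial genes, 16 tested, had 2 higher and 2 lower at 3 dpi. At 7 dpi these were 5 and 4, and in young hearts 1 and 13. Their sums were 1682 to 2156 CPM for control, 2301 to 2633 CPM for 3 dpi, 1634 to 1747 CPM for 7 dpi and 798 to 858 CPM for young hearts.

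Lists of heart muscle, other muscle and blood were read in the same way, and where genes reached the filter through the young libraries alone, counts in young hearts cover the others. Cardiomyocyte genes had 1 higher and 3 lower of 16 at 3 dpi, 5 higher and 5 lower at 7 dpi, and in young hearts 1 higher and 15 lower. At 7 dpi tnnc1a, tnnt2a, cmlc1, actc1a and vmhc were higher, and ttn.1, ttn.2, ryr2b, nppa and myh6 lower. Of 17 skeletal muscle genes 1 rose and 3 fell at 3 dpi, 11 rose at 7 dpi, and of 12 in young hearts 9 were higher and 2 lower. The skeletal sums were 3642 to 5058 CPM for control, 1993 to 3215 CPM for 3 dpi, 11080 to 13200 CPM for 7 dpi and 2274 to 2322 CPM for young hearts. Most of the adult sums came from ckma and acta1b. In control ckma read 2797 and 3583 CPM and acta1b 795 and 1351 CPM. At 7 dpi they read 9116 and 7822 CPM and 3778 and 2968 CPM. In young hearts these were the 2 lower genes. The skeletal sums therefore do not show how the remaining genes of the list compare between groups. The myosin gene myhz2 had 0 counts in all adult libraries. mylpfa, a fast skeletal light chain gene picked with its values known, read 0.25 and 2.3 CPM in the controls. It read 18.9 and 6.56 CPM at 7 dpi, a rise of 3.21 there, and 439 and 427 CPM in young hearts. pvalb1, a parvalbumin gene of fast muscle, rose by 3.59 at 7 dpi. Of 6 genes of gut and other visceral smooth muscle, 3 pass on adult libraries alone, of which 1 was higher and 1 lower in young hearts. desmb, a desmin gene of gut muscle, read there 11.0 and 7.29 CPM against 0.492 and 0.295 CPM in the controls. The 6 summed to 240 to 281 CPM for control and 178 to 312 CPM for 3 dpi. Their sums were 215 to 319 CPM for 7 dpi and 228 to 253 CPM for young hearts. Most of the adult sums came from hand2, at 98.2 and 170 CPM in control, and smtnb, at 138 and 108 CPM there. The sums therefore do not show how the remaining genes compare between adult and young hearts. Of these, nkx2.3 read 11.9 and 7.58 CPM in young hearts against 0.164 and 0 CPM in the controls. Like foxf1 and desmb, whose levels are given above, nkx2.3 reached the filter through the young libraries alone. Their levels are printed with no test. bmp4, which passes on adult libraries, was higher in young hearts by 3.33 (SE 0.46). In young hearts hand2 read 124 and 105.5 CPM, and smtnb was lower, at 38.8 and 41.5 CPM. At 3 dpi 1 of the 6, smtnb, fell, near the share of all genes; smtnb and desmb stand in the cytoskeleton list as well. Of 10 erythrocyte genes 1 fell at 3 dpi, under the share of all genes, 4 rose at 7 dpi, and of 8 in young hearts 1 was higher and 7 lower. The 7 lower ones were adult globin genes, alas2 and slc4a1a, and the higher one was hbbe2, an embryonic globin gene. The embryonic globin genes hbae3 and hbbe1.1 reached the filter through the young libraries alone. There they read 266 and 185 CPM and 21.7 and 14.0 CPM. Erythrocyte sums were 5154 and 14470 CPM for control, 2870 and 3659 CPM for 3 dpi, 18760 and 47280 CPM for 7 dpi, and 337 and 238 CPM for young hearts. Since adult and young hearts used different globin genes, these sums do not compare their red cell content.

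**Figure D5:**
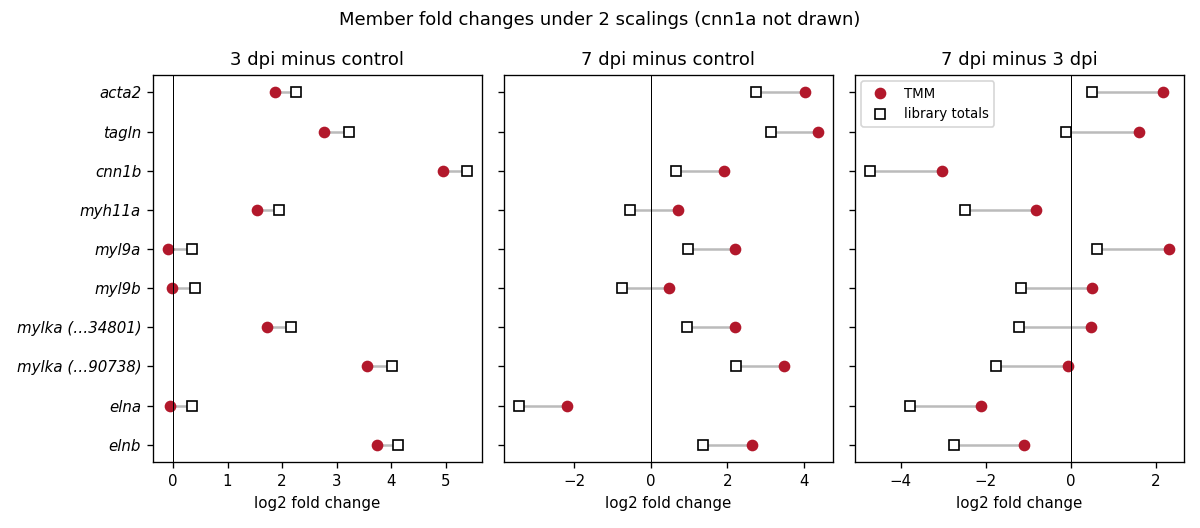
Log2 fold change of 10 members under TMM scaling (red circles) and under library totals (open squares) in the 3 comparisons of adult hearts; cnn1a is not drawn. In both comparisons with 7 dpi the open squares lie to the left by a similar step for every gene; myh11a and myl9b change sign at 7 dpi against control, and elna stays lower.

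Likeness of profile over the 8 libraries was read with Pearson's correlation of log2 CPM, as a description across libraries that share groups and depth. Among 8089 other named genes with a mean of at least 10 CPM, the 5 most like tagln were itih1 (r = 0.986), ddx52 (0.986), c2cd4a (0.986), foxc1b (0.983) and actr3 (0.982). As many as 185 genes had r over 0.9. Within the members the mylka gene ENSDARG00000034801 was closest to tagln, with r = 0.98, and myl9a and myl9b were close to each other, with r = 0.93. For elnb the 5 most like genes were hspbp1 (0.979), ifrd2 (0.979), memo1 (0.968), sbno1 (0.966) and cse1l (0.966), out of 221 with r over 0.9, and the correlation between elna and elnb was -0.69.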

How the data were processed

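The deposited counts are raw reads per Ensembl gene, which the authors made with TopHat2 2.0.13, HTSeq and the build GRCz10, per the submitters' processing notes. The deposited RPM values of the adult libraries, made by the authors, equal these counts divided by library totals within a relative tolerance of 1e-04 for 100% of 23350 genes. They served for symbols only, with 4026 further symbols from a table of gene names. Their 2 control columns are numbered opposite to the labels of the count columns, whose numbers are used here. The sources used here do not say how shared reads and strand were handled.

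A single edgeR 4.0.16 model (R 4.3.3) held all 8 libraries. The filterByExpr rule left 19330 genes, and library sizes were scaled by TMM. Group differences were tested by quasi-likelihood with 4 residual degrees of freedom. The test also borrows spread across genes and pools it over all 4 groups, so p-values do not rest on those degrees of freedom alone. P-values were adjusted by Benjamini-Hochberg over all genes tested, with a threshold of 0.05, and only calls are said to rise or fall. Standard errors come from the test statistic. An exact permutation of 2 against 2 libraries cannot go below 0.333. DESeq2 1.42.0 was an alternative. The procedure was tested on simulated counts with balanced changes in a single group and the same dispersion for every gene. The simulation built in no shift of composition between groups, so it cannot test the choice of scaling.

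The members and gene lists were chosen with earlier results of these data known. Named list genes are, per comparison, the 2 with the smallest p-value and the most abundant one, of which some are printed. Protein and coding lengths were not used here, so planned readings by length were not made.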

Additional observations from a re-analysis of the deposited data

Results flagged for a closer look

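For 6 members the effect at 7 dpi differed from the effect at 3 dpi. Both effects share the control libraries, so the test of their difference is the direct comparison of 7 with 3 dpi by edgeR. The log2 differences, 7 dpi minus 3 dpi, were 2.18 for acta2, 1.60 for tagln and 2.31 for myl9a on the higher side. On the lower side they were -3.04 for cnn1b, -0.82 for myh11a and -2.12 for elna. Under library totals the same differences were 0.49, -0.10, 0.61, -4.73, -2.50 and -3.79, of which those of acta2 and tagln did not pass.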

How the results depend on the processing

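Of 540 member values under other settings, 487 kept direction and call, 23 lost and 5 gained a call, and 25 changed sign, 2 of them called in the reported fit. A sign change was not counted again as a gained call. Under totals, myl9b and mylka (ENSDARG00000034801) changed sign and were newly called for 7 against 3 dpi. Scaling mattered most. Under library totals the values at 3 dpi were 0.35 for myl9a, 0.41 for myl9b and 0.34 for elna; at 7 dpi 5 members were higher rather than 8, with myh11a at -0.55 and myl9b at -0.75. For 7 against 3 dpi totals gave 1 higher and 7 lower rather than 3 and 3, with tagln at -0.10, myl9b at -1.16 and mylka (ENSDARG00000034801) at -1.22, and in young hearts myh11a at 0.30. That mylka value in young hearts was -0.058 with upper-quartile scaling and -0.022 without the 7 dpi libraries, a setting chosen after seeing the data. With mitochondrially encoded genes left out, also chosen then, all 40 member values kept direction and call.

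Leaving out 1 library at a time, where a lone library is assumed to vary like the others, gave ranges that cross 0. They were -0.41 to 0.18 (myl9a), -0.24 to 0.17 (myl9b) and -0.39 to 0.33 (elna) at 3 dpi, and -0.12 to 0.87 (myl9b) at 7 dpi. For 7 against 3 dpi they were -0.081 to 0.91 (myl9b), -0.43 to 0.36 (mylka, ENSDARG00000090738) and -1.78 to 0.16 (elnb). In young hearts they were -0.59 to 0.032 (myh11a) and -0.042 to 0.065 (mylka, ENSDARG00000034801), and 2 to 4 members were higher, 2 without control replicate 2.

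Differences between replicates correlated from -0.14 to 0.0679 between groups. With 2 libraries per group this cannot show whether the replicate numbers pair the samples. With the replicate block 7 members rose and 0 fell at 3 dpi, 7 and 1 at 7 dpi, 3 and 3 for 7 against 3 dpi, and 4 and 3 in young hearts; the calls lost were myh11a at 7 dpi and tagln in young hearts.

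Over all genes 3015 were called at 3 dpi, but 1823 with only the 2 groups compared, 1050 without control replicate 2 and 985 without 3 dpi replicate 1. At 7 dpi the count was 7486, but 11770 under totals and 4093 without control replicate 1. Totals moved the share of calls that were higher from 58.0% to 86.8% at 3 dpi, 48.3% to 6.19% at 7 dpi, 44.8% to 6.20% for 7 against 3 dpi and 54.1% to 71.8% in young hearts. List counts also moved, at 3 dpi to 4 to 11 of the elastic fibre list (reported 7), 0 to 6 of the serum response factor list (1), 9 of the cytoskeleton list (14), 2 to 9 of the mural list (4) and 2 to 10 of the fibroblast list (5). For 7 against 3 dpi totals called 26 of the cytoskeleton list (15), 17 of the serum response factor list (11) and 17 of the fibroblast list (8). The causes were not tested. Readings per coding or protein length were not run. The 2 libraries per group and the few counts of cnn1a and mylka (ENSDARG00000090738) limit precision.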
